A study of Mus musculus with 54 samples.

Results

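A set of 10 transcription factors that set or keep the identity of gonadal somatic cells were followed through 54 RNA-seq libraries of mouse testis and ovary. The 10 genes, Sox9, Foxl2, Wt1, Gata4, Gata6, Lhx9, Tcf21, Nr2f2, Emx2 and Sox8, were taken by symbol from the 26264 genes of the count tables, and all 10 had a row in both tissues. Males were sampled at 35 days post partum (dpp) and females at 30 dpp, so sex, tissue and age cannot be told apart. In F1, 3 libraries per tissue came from the control group (0.001% ethanol in the water), 3 from dose 1 and 3 from dose 2 of a pharmaceutical mixture given in drinking water from 8.5 days post coitum (dpc). Dose 1 held 11.3 ng/L ibuprofen (IBU), 90 ng/L 2hIBU, 22.5 ng/L diclofenac (DCF) and 2.25 ng/L 17a ethinyl-estradiol (EE2), and dose 2 held 113, 225, 112 and 45 ng/L of the same compounds. The F2 libraries, 3 per tissue and cross, came from crosses of F1 groups: control cross, maternal dose 1 or 2 (exposed mother, control father), paternal dose 1 or 2 (exposed father, control mother) and biparental dose 2. The labels name neither a strain nor the litter or animal behind a library, and whole organs were used. A p-value therefore measures the spread between these libraries, and a lower level in an organ may mean fewer cells of a type or less RNA per cell, which cannot be told apart.

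The mammalian gonad starts as a bipotential ridge in which WT1, LHX9, EMX2 and GATA4 are needed for growth and for the activity of the sex-determining pathway. In the XY gonad SRY switches on SOX9, which with SOX8 drives and maintains Sertoli cell fate. In the XX gonad FOXL2 maintains granulosa cell fate, and its loss in adult mouse ovary lets granulosa cells take on Sertoli features. NR2F2 (COUP-TFII) and TCF21 mark steroidogenic and stromal progenitors between the tubules or follicles.

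Promoter windows are shown for Foxl2, the most tissue-restricted factor, for Tcf21 and Nr2f2, and for Sox8, the testis-side factor with an entry. Each is 300 bases, from 250 before to 50 after the gene start in RefSeq on GRCm38.p6, read 5′ to 3′ on the gene's strand; the counts were made on another build, mm39. Foxl2 is at chr9:98955357-98955656 (plus strand), Tcf21 at chr10:22820094-22820393 (minus), Nr2f2 at chr7:70366697-70366996 (minus) and Sox8 at chr17:25570637-25570936 (minus). Capitals mark a match to AGATAA, a motif bound by zinc-finger factors such as GATA4.
Foxl2: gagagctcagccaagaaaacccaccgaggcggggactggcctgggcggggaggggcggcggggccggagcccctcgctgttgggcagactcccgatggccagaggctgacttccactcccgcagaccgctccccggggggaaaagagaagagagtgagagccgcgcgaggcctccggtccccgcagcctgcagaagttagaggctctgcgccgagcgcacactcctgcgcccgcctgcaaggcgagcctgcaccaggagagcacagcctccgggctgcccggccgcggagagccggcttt
Tcf21: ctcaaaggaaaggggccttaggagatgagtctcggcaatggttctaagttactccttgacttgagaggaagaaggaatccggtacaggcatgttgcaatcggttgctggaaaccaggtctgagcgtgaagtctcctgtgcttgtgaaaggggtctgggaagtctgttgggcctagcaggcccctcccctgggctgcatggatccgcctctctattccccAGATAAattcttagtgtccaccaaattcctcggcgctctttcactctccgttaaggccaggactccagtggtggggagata
Nr2f2: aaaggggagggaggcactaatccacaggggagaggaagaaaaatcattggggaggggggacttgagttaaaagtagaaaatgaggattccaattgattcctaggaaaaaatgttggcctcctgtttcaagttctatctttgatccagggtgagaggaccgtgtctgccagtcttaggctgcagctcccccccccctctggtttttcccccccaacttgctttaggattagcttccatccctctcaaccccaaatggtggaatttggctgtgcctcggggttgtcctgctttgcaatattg
Sox8: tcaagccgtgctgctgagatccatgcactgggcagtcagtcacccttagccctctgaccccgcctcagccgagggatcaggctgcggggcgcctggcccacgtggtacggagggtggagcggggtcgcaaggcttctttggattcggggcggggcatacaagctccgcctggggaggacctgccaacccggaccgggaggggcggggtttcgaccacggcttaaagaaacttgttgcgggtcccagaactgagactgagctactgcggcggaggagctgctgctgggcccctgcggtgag
The Foxl2 window is 71.3% G and C and the Sox8 window 66.3%, against a median of 52.7% over 32851 promoters of the table. Tcf21 and Nr2f2 stood near that median, at 53.3% and 49.7%. Both strands of the 6 windows with an entry (also Lhx9 and Emx2) were searched for AGATAA, the SOX-type AACAAT, the forkhead-type GTAAACA and the E-box CAGCTG. The AGATAA of Tcf21 was the 1 match, and 11.2% of all promoters hold that motif, 10.7% hold AACAAT, 3.65% GTAAACA and 16.3% CAGCTG. Sox9, Wt1, Gata4 and Gata6 have no entry. A match in a window is a description of its letters.

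Library totals ran from 31.6 to 122.4 M counts, and levels are CPM, a count scaled by the total of its library. Every testis library held all 4 Y-linked genes and all 8 testis germ cell markers listed, and every ovary library all 9 oocyte markers. Features of single libraries touch the results below. Ovary F1 control A had a summed level of Y-linked genes of 6.20 CPM, 8.26% of the testis median. The other 26 ovary libraries had 0 to 0.523 CPM, with 0 in every F2 ovary. Its testis germ cell markers summed to 1223 CPM, with all 8 of 8 detected. The sums were 12.1 to 88.1 CPM in the other F1 ovaries and 1.08 to 6.01 CPM in F2 ovaries. Every F1 ovary therefore lay above every F2 ovary in this sum. Among F1 testes the same germ cell sum was lowest in dose 2 B (7641 CPM) and highest in dose 2 C (22685 CPM). Results of the 10 factors that rest on these libraries are given with and without them.

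All 10 factors separated the tissues without overlap: over the 27 testis and 27 ovary libraries, Sox9 and Sox8 were higher in every testis library and the other 8 in every ovary library. In the fit of the 12 control libraries all 10 passed in F1 and in F2 (edgeR quasi-likelihood test, adjusted p under 0.05). This share is no mark of these genes, since 85.6% of the 20167 genes tested passed in F1 and 86.8% in F2, and libraries did not overlap for 87.9% and 89.7%. By direction, 42.4% of genes were called higher and 43.2% lower in F1 testis, and 44.5% and 42.4% in F2. The median log2 difference of the 10 was -2.81 in F1 and -2.25 in F2, with medians over all genes of -0.05 and 0.05. Differences are on edgeR's TMM scale, which sets the median gene near 0. With library totals alone all-gene medians were -0.42 and -0.40, and with relative log expression factors 0.28 and 0.28, and the direction of each factor held on every scale.

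**Figure D1:**
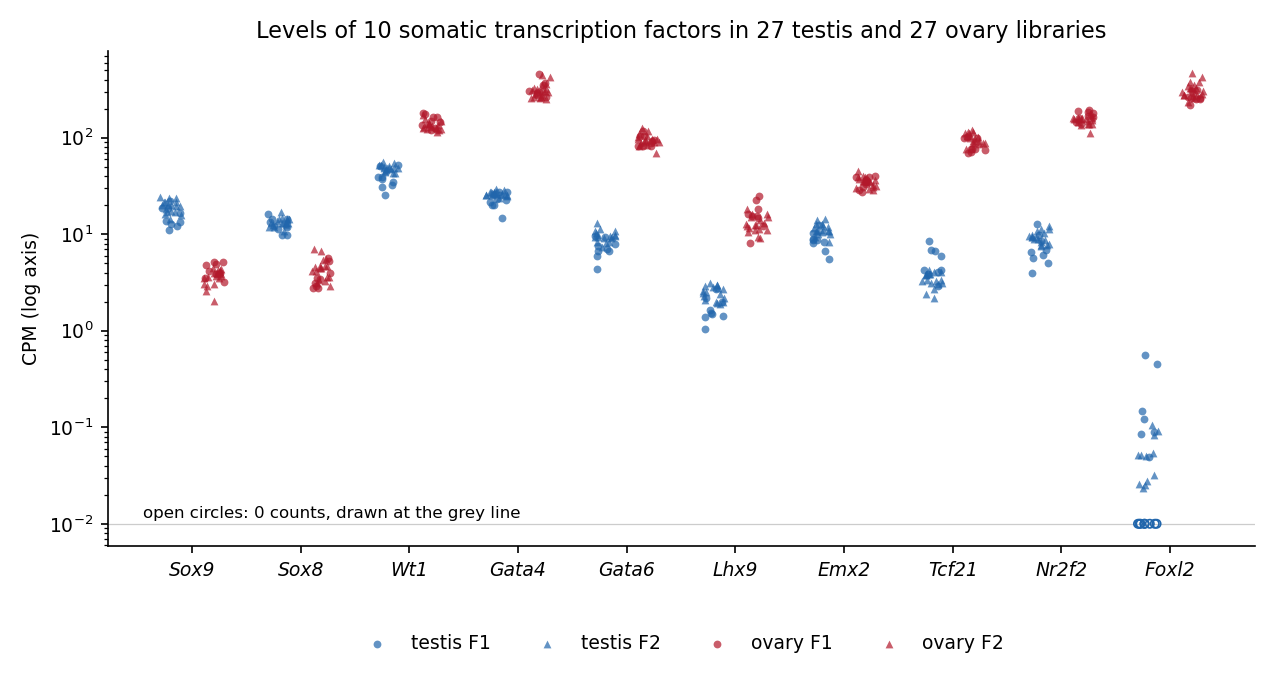
CPM on a log axis for each factor, with testis libraries in blue, ovary libraries in red, circles for F1 and triangles for F2; open circles are libraries with 0 counts. Sox9 and Sox8 lie higher in testis, the other 8 higher in ovary, and Foxl2 spans from 0 to 464 CPM.

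Sox9, the central Sertoli factor, was at 22.0, 13.2 and 18.8 CPM in the F1 control testes and at 4.15, 4.75 and 3.18 CPM in the F1 control ovaries. In F2 control crosses it was at 24.0, 19.6 and 19.8 CPM in testis and at 3.48, 2.04 and 4.41 CPM in ovary. The lowest of all 27 testis libraries had 11.0 CPM and the highest of all 27 ovary libraries 5.21 CPM, so each ovary held Sox9 reads at a level below that of any testis. The log2 difference was 2.52 ± 0.29 (SE) in F1 and 3.12 ± 0.30 in F2 (edgeR adjusted p = 1.73e-05 and 3.57e-06).

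Sox8, a close relative of Sox9 that acts beside it in Sertoli cells, was at 14.3, 13.3 and 14.2 CPM in F1 control testes and 3.49, 5.60 and 2.92 CPM in F1 control ovaries. Its log2 difference was 2.17 ± 0.21 in F1 and 1.78 ± 0.21 in F2 (edgeR adjusted p = 4.89e-06 and 1.73e-05). The gap between tissues was the narrowest of the 10: the lowest testis library, at 9.74 CPM, was 1.39 times the highest ovary library, at 7.01 CPM. For Sox9 that ratio of nearest libraries was 2.11.

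Foxl2, the granulosa factor, was at 262, 251 and 289 CPM in F1 control ovaries, where the control testes had 0, 4 and 5 counts. The testis library with 0 counts allows up to 0.0792 CPM (3 counts). Pooled over the 3 F1 control testes, 9 counts gave 0.0714 CPM (95% Poisson interval 0.0327 to 0.136), and the ovary mean of 267 CPM was 3740-fold higher (1970-fold to 8179-fold, counting error of the testis only). In F2 control crosses 4 counts gave 0.0338 CPM (0.00921 to 0.0865) and the ovary mean of 305 CPM was 9032-fold higher (3527-fold to 33148-fold). Fitted log2 differences of -11.45 and -12.62 depend on the prior count at such low testis counts.

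Among all 27 testis libraries Foxl2 had 120 counts. F1 dose 1 B and C held 18 and 55 of them, at 0.566 and 0.449 CPM, while none of the other 25 passed 7 counts or 0.147 CPM. The antisense transcript Foxl2os was highest in the same libraries, at 0.597 and 0.368 CPM, against 0.0493 CPM in dose 1 A. The granulosa receptor gene Nr5a2 was also highest of the 9 F1 testes in these libraries, at 0.974 and 1.03 CPM against 0.335 to 0.792 CPM in the other 7. Over all 27 testes, however, Nr5a2 reached 1.06 CPM. Other granulosa genes did not follow it: Fst was at 1.16 and 0.891 CPM, below dose 2 B (1.48), and Amh in dose 1 C was the lowest of the 9 (3.92 CPM). Inha (116 and 117 CPM) and Cyp19a1 (5.03 and 5.32 CPM) lay inside the range of the other F1 testes. Xist was at 2.73 CPM in dose 1 B, the highest of the 27 testes, and at 1.90 CPM in dose 1 C, where the lowest ovary had 173.9 CPM. Their granulosa marker sums, 210 and 216 CPM, were inside the range of testis libraries (173 to 273 CPM). The oocyte factor Bmp15 had 0 and 11 counts in them, and their oocyte marker sums, 24.4 and 26.6 CPM, were inside the testis range of 15.6 to 42.7 CPM. The part of ovarian RNA in the Foxl2 counts was not tested. Foxl2 was too low to be tested in the testis exposure fits.

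Wt1, needed for the gonadal ridge and later for Sertoli cells, was at 52.5, 39.5 and 37.6 CPM in F1 control testes and 164, 164 and 145 CPM in F1 control ovaries. The F2 control crosses had 47.7, 47.0 and 48.2 CPM in testis and 128, 124 and 122 CPM in ovary. The difference was -1.51 ± 0.11 in F1 and -0.94 ± 0.10 in F2 (edgeR adjusted p = 3.84e-07 and 1.12e-05), the smallest of the 8 ovary-higher factors in both.

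Gata4, a zinc-finger factor of Sertoli, granulosa and steroidogenic cells, was at 23.3 to 27.3 CPM in control testes of both generations and 264 to 354 CPM in control ovaries. Its difference was -3.22 ± 0.13 in F1 and -3.10 ± 0.13 in F2. Gata6, its partner in the same cells, was at 6.72 to 12.9 CPM and 81.7 to 117 CPM, a difference of -3.20 ± 0.18 and -2.55 ± 0.17. Lhx9 and Emx2, homeobox genes of the early ridge, were low: Lhx9 had 1.52 to 2.89 CPM in control testes and 8.17 to 16.3 CPM in control ovaries (-2.42 ± 0.27 and -1.95 ± 0.26). Emx2 had control means of 9.26 CPM in F1 testis and 34.7 CPM in F1 ovary, and of 10.8 and 30.2 CPM in F2 (-1.56 ± 0.24 and -1.03 ± 0.24).

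Nr2f2 and Tcf21 stood furthest towards ovary after Foxl2. Nr2f2 was at 6.07 to 9.80 CPM in control testes and 137 to 184 CPM in control ovaries, a log2 difference of -4.00 ± 0.19 in F1 and -3.76 ± 0.19 in F2. Tcf21 was at 2.71 to 6.65 CPM and 68.6 to 115 CPM, a difference of -3.64 ± 0.28 and -4.38 ± 0.29. For these 6 factors edgeR adjusted p ran from 1.39e-08 (Gata4, F1) to 0.00214 (Emx2, F2). Without ovary F1 control A all 10 factors still passed in F1, with differences from -11.44 (Foxl2) to 2.57 (Sox9).

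**Figure D2:**
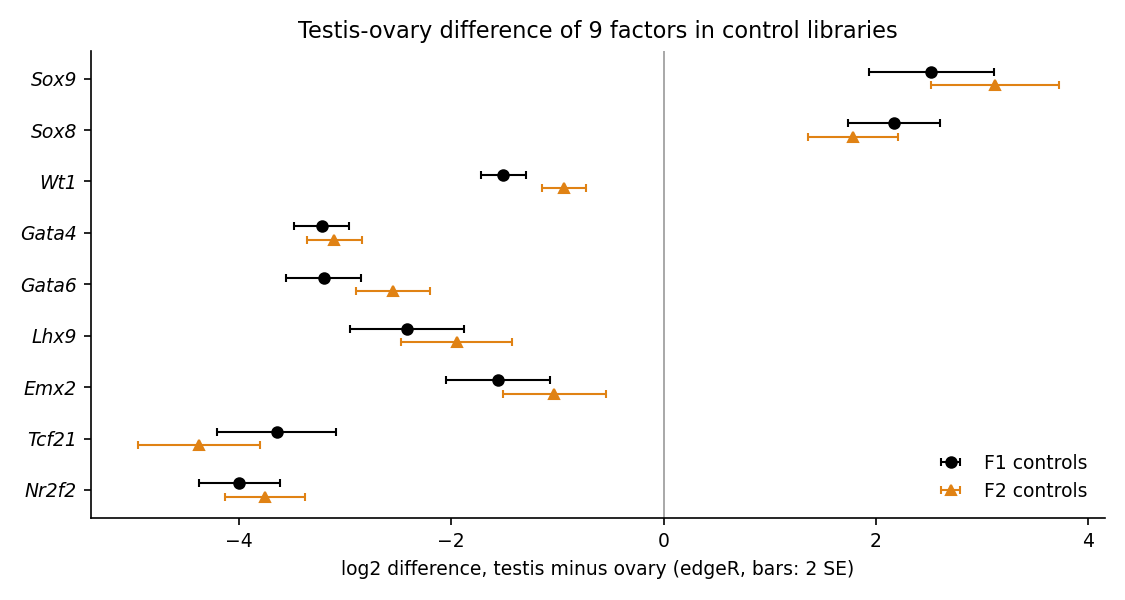
Log2 difference between control testis and control ovary for 9 factors, as points with bars of 2 SE for F1 (circles) and F2 (triangles); Foxl2 is left out because its fitted value depends on the prior count. Sox9 and Sox8 lie right of 0 and the other 7 left of it, with Wt1 and Emx2 nearest to 0.

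The tissue difference itself was compared between generations, and Wt1 was the 1 factor that passed: its difference was 0.57 ± 0.15 log2 units less negative in F2 than in F1 (edgeR adjusted p = 0.0367). Of all genes, 16.9% passed this test, and the median over all genes was 0.31, so that part of the Wt1 value is shared by the median gene. The call ended in 9 of the other settings tried, with values from 0.31 to 0.57 and adjusted p from 0.0706 to 0.15, among them library totals alone, all 54 libraries, and leaving out F1 control testis B or C. Without ovary F1 control A it was 0.51 (edgeR adjusted p = 0.0474). Gata6 had the next lowest p, with 0.65 ± 0.23 (edgeR adjusted p = 0.0698), and Tcf21 had -0.73 (edgeR adjusted p = 0.152).

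Levels of different genes were compared per kilobase of exon (CPM per kb, GENCODE M21 exon lengths). In ovary the medians over 27 libraries put Foxl2 first at 88.7, then Gata4 at 76.4, Tcf21 at 39.5, Wt1 at 21.8, Nr2f2 at 18.3, Gata6 at 14.3 and Emx2 at 11.9 CPM per kb. Lhx9, Sox8 and Sox9 followed at 1.37, 1.34 and 0.941. Neighbours in this order overlapped, Foxl2 (66.2 to 143) and Gata4 (64.8 to 117) among them, except Gata4 and Tcf21, Tcf21 and Wt1, and Emx2 and Lhx9. In testis Wt1 led at 7.69 CPM per kb, followed by Gata4 at 6.58, Sox9 at 4.53, Sox8 at 4.20, Emx2 at 3.57, Tcf21 at 1.64, Gata6 at 1.42, Nr2f2 at 1.03, Lhx9 at 0.232 and Foxl2 at 0.0152. Each neighbouring pair in the testis order overlapped except Lhx9 and Nr2f2, and Foxl2 and Lhx9 overlapped only through 2 dose 1 libraries.

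Ratios of counts within a library, which library size does not touch, also separated the tissues. Wt1 had 1.84 counts per Gata4 count in testis (median, 1.47 to 2.04) and 0.441 in ovary (0.320 to 0.625). Sox9 had 0.416 counts per Wt1 count in testis (0.293 to 0.524) and 0.0270 in ovary (0.0164 to 0.0414). Gata4 counts per Gata6 count did not separate them, at 2.85 (2.11 to 3.75) in testis and 3.36 (2.26 to 5.13) in ovary. Foxl2 and Gata4 had nearly equal counts in ovary, with a ratio of 0.977 (0.669 to 1.23).

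Other genes of the same pathways were listed to set the factors in context. Of 18 testis-pathway genes, 6 were higher and 11 lower in control testis in F1, and 7 and 9 in F2, with list medians of -1.45 and -0.72, where 42.4% and 43.2% of all genes were higher and lower in F1 and 44.5% and 42.4% in F2. Among the 7 is Nr0b1, whose direction depends on the scaling: it was higher on the TMM scale (0.37, edgeR adjusted p = 0.0478), while its CPM was 13.6 in testis and 14.3 in ovary, with overlapping libraries. Without ovary F1 control A the F1 counts of this list, of the ovary-pathway list and of the interstitial list were the same. Dmrt1, which maintains Sertoli fate in adult mice, was at 22.0 CPM against 0.802 in F1. Ovary F1 control A alone had 2.35 CPM; without it the ovary mean was 0.0296 CPM and the log2 difference 9.72 in place of 5.16. In F2 Dmrt1 was at 17.4 against 0.00393 CPM. Sry was present in all 27 testis libraries (0.0629 to 0.607 CPM) and at 0 in all 27 ovary libraries. The largest differences towards ovary in this list were Amh (5.90 against 338 CPM), which Sertoli cells make before puberty and granulosa cells of growing follicles make, Nr5a1 (40.6 against 416 CPM), a nuclear receptor of all steroidogenic and supporting cells, and Igf1r (26.3 against 261 CPM). In F2 Cited2 took the place of Igf1r, at 17.5 against 202 CPM.

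Of 15 ovary-pathway genes, 12 were lower in testis and 3 higher in both generations, with medians of -3.15 and -3.55, against the same shares of all genes. Esr2 (0.417 against 328 CPM in F1), Fst (0.826 against 440) and Bmp2 (0.157 against 64.4), granulosa genes of oestrogen, activin and BMP signalling, differed most. Lef1, a nuclear partner of beta-catenin (51.1 against 4.67 CPM, or 3.20 CPM without ovary F1 control A), Irx5 (18.6 against 10.8) and, in F2, Znrf3 (38.8 against 20.5) were higher in testis. Of 14 interstitial progenitor genes, 13 were lower in testis in both generations, with medians of -3.37 and -2.83. Nr2f1, the paralog of Nr2f2, was at 0.138 against 4.98 CPM in F1 and Meis2 at 0.418 against 14.1. In F2 Gli1, at 3.16 against 75.6, was among the 3 with the largest differences. Lhx2 was the exception, at 3.99 against 0.697 CPM (0.459 without ovary F1 control A). Endothelial (6 of 7) and smooth muscle (6 of 6) markers were also lower in testis in F1, where 43.2% of all genes were, and all 8 germ cell markers higher.

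Genes whose pattern over the 18 group means was nearest to Sox9 were Dusp18, Pde8a, Pafah2, Iqce and Phc1, with root-mean-square differences of 0.112 to 0.118 in log2 CPM among 17139 genes with a mean of at least 1 CPM. The 18 groups span both tissues, so a like tissue difference brings genes near: Dusp18 was at 52.4 CPM in testis and 12.1 CPM in ovary. For Foxl2 they were Oas1e, Bmp3, Khdc1b, Apoa4 and Fbxw24, at 0.517 to 0.799. An offset of 0.01 was added before the log, and testis means of these genes were 0.00617 to 0.0514 CPM. Their testis values therefore depend on that offset and on few counts. Bmp3, for example, was at 0.0514 CPM in testis and 166 CPM in ovary.

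Exposure was asked about next, in 20 comparisons within one tissue and generation, 14 against a control and 6 direct. No factor passed in any of them: 0 of 190 tests had an edgeR adjusted p under 0.05, where 0.0% to 0.372% of all genes passed per comparison. Of all genes, 0.021% passed in F1 testis at dose 1, 0.00526% at dose 2 and 0.0263% between doses. In F2 testis 0.0103% passed in maternal dose 1, 0.372% in maternal dose 2, 0.201% in paternal dose 1, 0.00516% in paternal dose 2 and 0.0155% in the biparental cross, with 0.0413% and 0.119% between parents at dose 1 and dose 2. In ovary the share was 0.00575% in F2 paternal dose 1 and between parents at dose 1, and 0.0% in the other 8 comparisons. Tests over all groups at once called 0 factors; of all genes they called 0.0263% and 0.16% in testis (F1, then F2) and 0.0% and 0.00575% in ovary. At an unadjusted p under 0.05 there were 19 (10.0%), against 7.68% of the tests over all genes. DESeq2, which called 0.421% of the tests over all genes, called 5 of the 190, in comparisons where it called 1.18% (Sox8, F2 testis paternal dose 1), 0.0447% (Tcf21, F1 ovary dose 2), 0.319% (Tcf21 and Wt1, F1 ovary dose 2 against dose 1) and 0.0115% of all genes (Gata6, F2 ovary maternal against paternal dose 2). Libraries of the groups did not overlap in 30 of the 190 (15.8%), against 12.8% over all genes. Comparisons against one control share its libraries. The fitted change was under 0.5 log2 units in 184 of 190, and the largest was 0.77. Of the testis-pathway, ovary-pathway and interstitial progenitor genes, 0 passed in any of the 20.

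**Figure D3:**
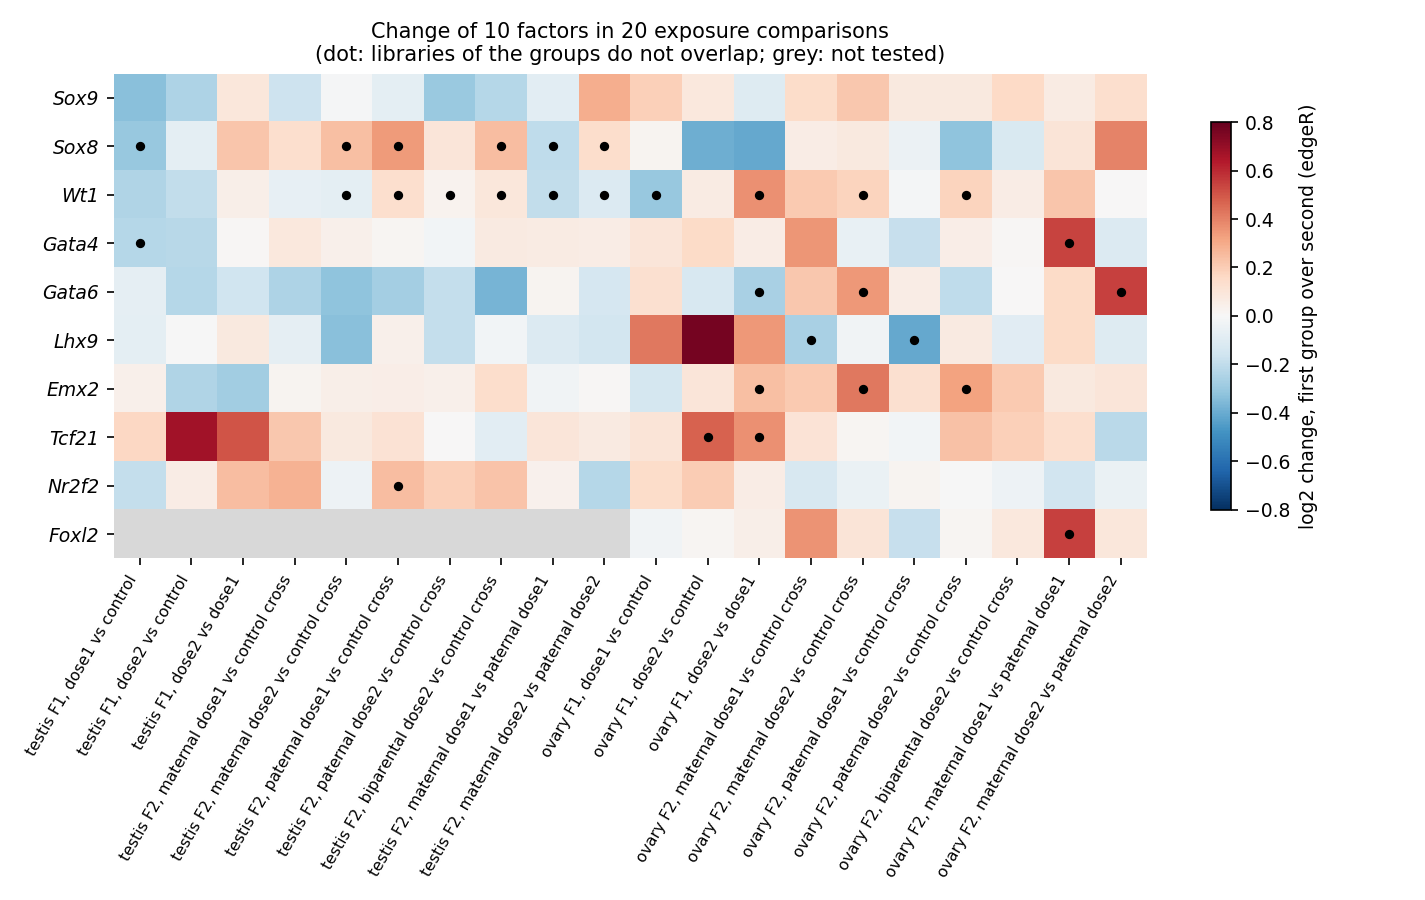
Fitted log2 change of each factor (rows) in each of the 20 exposure comparisons (columns), red where the first group was higher and blue where it was lower; dots mark comparisons whose libraries did not overlap, and grey cells were not tested. No cell passed the adjusted test; the strongest colours are Lhx9 in ovary F1 dose 2 (0.77) and Tcf21 in testis F1 dose 2 (0.67).

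Tcf21 in F1 ovary, a stromal progenitor factor, ranked high among all genes at dose 2. Its dose 2 libraries were at 101, 99.9 and 100.0 CPM, its dose 1 libraries at 76.7, 75.8 and 75.0 CPM and its controls at 68.6, 70.4 and 75.7 CPM. All 3 dose 2 libraries lay above the other 6. Against control the change was 0.47 ± 0.056, second of 17896 genes by p but with an edgeR adjusted p = 0.185. DESeq2 gave 0.47 with an adjusted p = 2.51e-10, and over the settings tried the adjusted p ran up to 0.999, the value without ovary F1 control A, where the change was 0.43 ± 0.069. Dose 2 against dose 1 gave 0.37 ± 0.056 (edgeR adjusted p = 0.645; DESeq2 5.75e-06). In the F2 control cross, where no exposure is labelled, Tcf21 was at 75.4, 115 and 87.2 CPM. Its SD there, 20.1 CPM, was the largest of any ovary group, against 3.69 CPM in F1 controls and 0.783 CPM at F1 dose 2. Tcf21 was the 1 of 10 factors without overlap at dose 2 against control, where 8.07% of all genes did not overlap.

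Wt1 in F1 ovary was at 126, 119 and 134 CPM at dose 1, below its controls (164, 164 and 145 CPM) and below dose 2 (149, 174 and 179 CPM). The dose 1 change was -0.30 ± 0.082 (edgeR adjusted p = 0.550) and -0.29 ± 0.099 without ovary F1 control A. It was the 1 factor without overlap in that comparison, against 11.0% of all genes. Oocyte markers were also lowest at dose 1, with sums of 690 to 752 CPM at dose 1, 854 to 889 CPM in controls and 850.0 to 1002 CPM at dose 2. Against controls the dose 1 sums were also lower for smooth muscle markers (1643 to 1901 against 1906 to 2164 CPM). They were higher for endothelial markers (415 to 459 against 376 to 402 CPM) and surface epithelium markers (91.1 to 109 against 31.2 to 89.4 CPM). Their part in the Wt1 values was not tested. Dose 2 lay 0.37 ± 0.082 above dose 1 (edgeR adjusted p = 0.809; DESeq2 0.0175). In dose 2 against dose 1, 4 of 10 factors did not overlap, where 12.9% of all genes did not: Wt1, Tcf21 and Emx2 higher and Gata6 lower. Lhx9 had 12.0, 16.3 and 8.17 CPM in controls and 15.6, 22.3 and 25.1 CPM at dose 2, a change of 0.77 ± 0.25 with overlapping groups (edgeR adjusted p = 0.814).

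**Figure D4:**
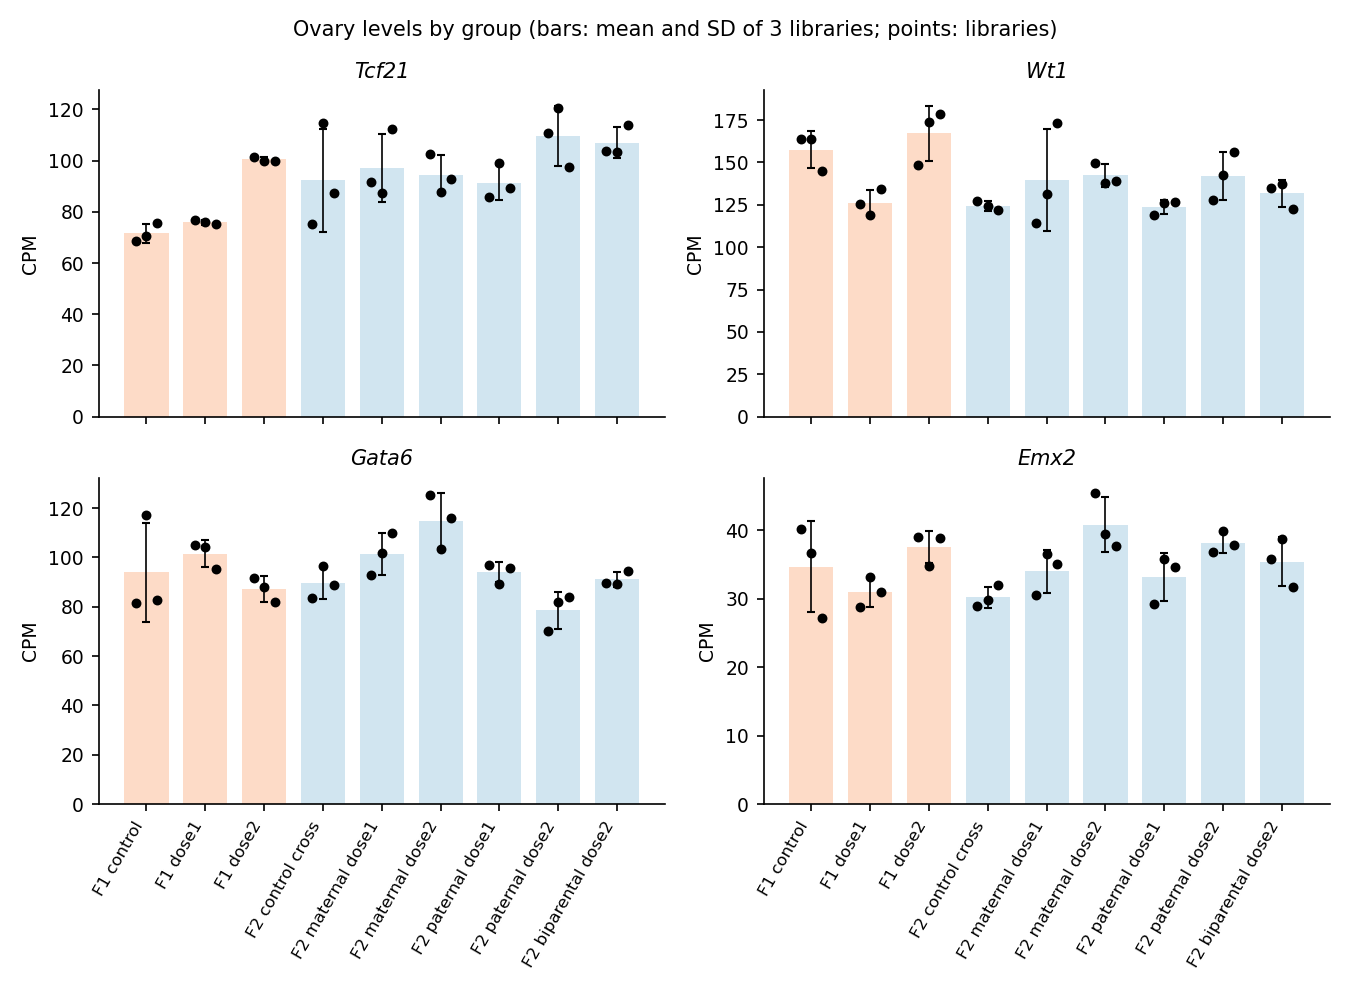
CPM of Tcf21, Wt1, Gata6 and Emx2 in the 9 ovary groups, as bars of the mean with SD (n = 3) and points for libraries; F1 groups are orange and F2 groups blue. The 3 points of Tcf21 at F1 dose 2 lie near 100.4 CPM, above the F1 controls and dose 1, while the F2 control cross runs from 75.4 to 115 CPM.

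In F2 ovary the parent of origin at dose 2 gave the lowest p for Gata6, which was at 125, 104 and 116 CPM in the maternal dose 2 cross and 70.0, 82.0 and 83.9 CPM in the paternal dose 2 cross. All 3 maternal libraries were higher, a change of 0.55 ± 0.10, first of 17400 genes by p (7.63e-05) though with an edgeR adjusted p = 1.0 (DESeq2 0.0134). It was the 1 of 10 without overlap, against 11.0% of all genes. The control cross, at 83.4, 96.6 and 89.0 CPM, lay below the maternal libraries and overlapped the paternal ones, and Gata6 in the maternal dose 2 cross was 0.34 ± 0.10 above it (edgeR adjusted p = 0.638). A test over all 6 F2 crosses gave Gata6 an edgeR adjusted p = 0.372, and 0.0411 without maternal dose 1 A.

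Emx2 was higher without overlap in both single-parent dose 2 crosses of F2 ovary. It was at 45.4, 39.5 and 37.6 CPM with an exposed mother and 36.9, 39.9 and 37.8 CPM with an exposed father, against 28.9, 29.8 and 31.9 CPM in the control cross. The changes were 0.42 ± 0.11 and 0.32 ± 0.11 (edgeR adjusted p = 0.605 and 1.0). Steroidogenic marker sums of the control cross, at 7964 to 8451 CPM, lay above those of every other F2 ovary cross. They were 4819 to 5573 CPM in maternal dose 2, 4803 to 7142 CPM in paternal dose 2 and 6803 to 7874.5 CPM in biparental dose 2. At dose 1 they were 5553 to 6562 CPM (maternal) and 5065 to 7260 CPM (paternal). Their part in the Emx2 values was not tested. With both parents exposed Emx2 was at 35.9, 38.7 and 31.6 CPM, which overlapped the control. In the maternal dose 2 cross 3 of 10 factors did not overlap (Wt1, Gata6 and Emx2, all higher; 12.7% of all genes) and in the paternal dose 2 cross 2 of 10 (Wt1 and Emx2, both higher; 10.7%).

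Foxl2 and Gata4, both granulosa factors, differed in the same direction between the dose 1 crosses. Foxl2 was at 330, 350 and 464 CPM in the maternal dose 1 cross and 257, 276 and 277 CPM in the paternal, and Gata4 at 319, 358 and 447 CPM and 284, 253 and 263 CPM. Neither pair of groups overlapped (2 of 10 factors, against 14.3% of all genes), with differences of 0.55 ± 0.20 and 0.54 ± 0.18 (edgeR adjusted p = 0.374 for both). The highest values are those of maternal dose 1 C, a library that stands apart: its chi-square per degree of freedom was 207 and 209 against its replicates, which had 64.4 between them. It was the lowest of 27 ovary libraries for Nr2f2 and for Foxl2os, Wt1os, Gata6os and Emx2os. Without it the differences were 0.37 ± 0.20 and 0.38 ± 0.18 (edgeR adjusted p = 0.993 and 0.976). Against the control cross neither gene separated in either dose 1 cross. Lhx9 was the 1 factor that did, lower in the maternal (12.2, 12.5 and 9.30 CPM; 9.35% of all genes) and in the paternal dose 1 cross (11.0, 9.07 and 11.4 CPM; 13.1%), with the control cross at 16.1, 12.6 and 13.0 CPM. Those changes were -0.26 ± 0.20 and -0.41 ± 0.20 (edgeR adjusted p = 0.530 and 0.998). With both parents at dose 2, 0 of 10 factors separated, where 15.6% of all genes did.

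In F2 testis Sox8 had the lowest adjusted p of all 190 tests. It was at 14.3, 13.9 and 17.0 CPM in the paternal dose 1 cross and 10.9, 12.5 and 11.8 CPM in the control cross, a change of 0.34 ± 0.086 (edgeR adjusted p = 0.124; DESeq2 0.0342). It was also higher without overlap in the maternal dose 2 and biparental dose 2 crosses (0.24 ± 0.086 and 0.25 ± 0.086; edgeR adjusted p = 0.199 and 0.576). These share the 3 control libraries. Sox9 did not follow: it was at 21.5, 16.4 and 23.5 CPM in the paternal dose 1 cross, inside and around the control values of 24.0, 19.6 and 19.8 CPM.

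Wt1 in the F2 control testes spanned only 47.0 to 48.2 CPM, so small differences gave no overlap. It was higher in the paternal dose 1 (52.0 to 55.6 CPM), paternal dose 2 (48.5 to 49.3 CPM) and biparental dose 2 (48.7 to 54.3 CPM) crosses and lower in the maternal dose 2 cross (44.4 to 46.7 CPM). None passed (edgeR adjusted p = 0.383 for paternal dose 1, the largest change, at 0.13 ± 0.062). The counts without overlap were 3 of 9 factors in paternal dose 1 (17.8% of all genes), 2 in maternal dose 2 (21.6%), 1 in paternal dose 2 (10.7%), 2 in biparental dose 2 (12.3%) and 0 in maternal dose 1 (11.8%). Maternal against paternal gave 2 at dose 1 (16.4%) and 2 at dose 2 (21.2%), Wt1 and Sox8 in each. Wt1 was lower in the maternal cross at both doses, while Sox8 was lower there at dose 1 and higher at dose 2.

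F1 testis gave no unadjusted p under 0.05 for any factor in the edgeR test, with 2 of 9 without overlap at dose 1 (Gata4 and Sox8, both lower; 12.7% of all genes) and 0 at dose 2 (3.73%) or between doses (7.3%). Gata4 was at 20.0, 20.2 and 22.4 CPM at dose 1 and 27.3, 25.7 and 23.3 CPM in controls. Summed cell-type markers differed between the same groups without overlap: Sertoli markers were at 943 to 1029 CPM at dose 1 and 1051 to 1248 CPM in controls, and granulosa-list genes at 201 to 216 and 222 to 261 CPM. Most of the Sertoli sum comes from Clu and Ctsl, with testis medians of 670 and 212 CPM. Both had higher medians in ovary, at 1350 and 850 CPM, so the sum is not specific to Sertoli cells. The mean germ cell sum was 17287 CPM at dose 1 and 12435 CPM in controls, with overlap. The part of cell makeup in the Gata4 and Sox8 values was not tested. Dose 2 C was the lowest of the 9 libraries for Wt1 (25.7 CPM), Gata4 (14.8), Gata6 (4.40), Lhx9 (1.05), Nr2f2 (3.98) and Emx2 (5.52) and the highest for Tcf21 (8.43). It also had the highest germ cell marker sum, and dose 2 B, with the lowest such sum, had 51.4 CPM of Wt1, 27.1 of Gata4 and 12.8 of Nr2f2. Over the 9 F1 testes, Spearman rho with the germ cell sum was -0.967 for Nr2f2, -0.917 for Wt1 and -0.8 for Sox8. It was -0.783 for Gata6 and Lhx9, -0.75 for Gata4, -0.65 for Emx2, -0.417 for Sox9 and -0.0667 for Tcf21. Foxl2, near the floor, had 0.762. CPM values of one library share its total, and the part of germ cell content in these values was not tested. Without dose 2 B, Wt1 (-0.41), Gata4 (-0.33) and Gata6 (-0.44) had unadjusted p under 0.05 at dose 2 (edgeR adjusted p = 0.262 to 0.287), where none had with it. Without dose 2 C changes at dose 2 ran from -0.26 to 0.31, where Tcf21 had been at 0.67 ± 0.36 with it (edgeR adjusted p = 0.982).

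Within groups, 3 pairs of factors covaried across the 27 ovary libraries after each group's mean was taken off. Foxl2 and Gata4 deviated in the same direction (Pearson r = 0.80, permutation p = 0.00022, Spearman rho = 0.77, p = 0.00023). Nr2f2 ran against Foxl2 (r = -0.77, permutation p = 0.0003; rho = -0.81, p = 0.00026) and against Gata4 (r = -0.72, permutation p = 0.0012; rho = -0.73, p = 0.0012). Adjusted over 81 pairs in both tissues these p-values were 0.012, 0.012 and 0.032 for r and 0.011, 0.011 and 0.033 for rho. Without the 2 libraries farthest from the median of the first gene r was 0.73, -0.74 and -0.70. Within F1 (9 libraries) r was 0.77, -0.62 and -0.58, and within F2 (18 libraries) 0.85, -0.84 and -0.81. By level, maternal dose 1 C had 464 CPM of Foxl2, 447 of Gata4 and 111 of Nr2f2. These were the highest, second highest and lowest of the 27 ovary values of each gene. Values of r without maternal dose 1 C alone were not computed. Within a group, Foxl2 ranged from 330 to 464 CPM in maternal dose 1 and from 232 to 420 CPM in paternal dose 2. Tcf21 had r = 0.63 with Foxl2 and r = -0.47 with Nr2f2, and neither pair passed (adjusted permutation p = 0.15 and 0.28). CPM values of one library share its total, and the part of cell makeup in these values was not tested.

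**Figure D5:**
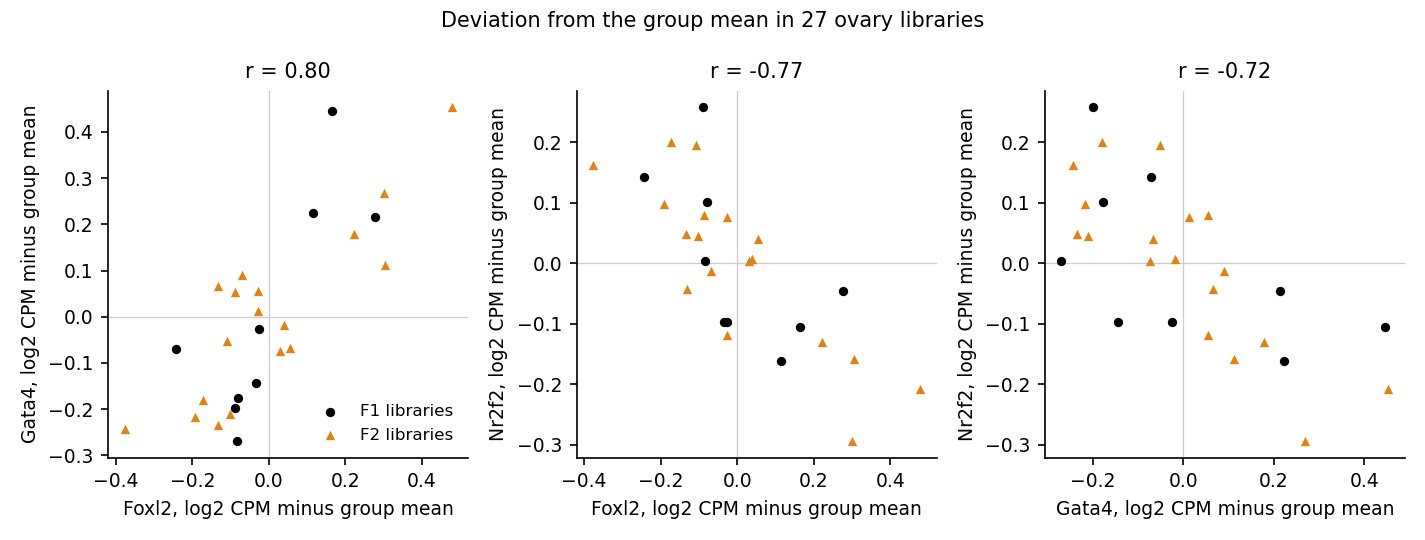
Deviation of log2 CPM from the group mean in each of 27 ovary libraries, for Foxl2 against Gata4, Foxl2 against Nr2f2 and Gata4 against Nr2f2, with F1 as circles and F2 as triangles. The first pair rises along the diagonal (r = 0.80) and Nr2f2 falls as either of the others rises (r = -0.77 and -0.72).

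In testis, where Foxl2 was left out, 0 of 36 pairs passed after adjustment. Wt1 and Nr2f2 had the highest value, r = 0.85 (permutation p = 0.0084, adjusted 0.14), which was 0.98 within F1 and 0.006 within F2, so it rests on the F1 libraries. Both genes ran against the germ cell sum in F1 testis (Spearman rho = -0.917 and -0.967). The spread of these factors was wider in F1 testis than in F2 testis, and so was that of the median gene. The median coefficient of variation of a group was 15.8% in F1 against 7.82% in F2 for the median gene. Wt1 widened most, at 18.8% against 3.24%. Nr2f2 (29.7% against 10.8%) and Emx2 (22.6% against 8.48%) also widened by a larger ratio than the median gene. For Sox9, Gata4, Gata6, Lhx9, Tcf21 and Sox8 the ratio was no larger than that of the median gene. Gata4, for example, had 7.83% against 5.61%.

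Wt1, Foxl2, Gata6 and Emx2 each have an antisense partner in the tables, and with no strand setting stated for the counting, reads of sense and antisense genes may not be told apart. Foxl2os ran from 0 to 0.597 CPM in testis and 160 to 394 in ovary. Gata6os ran from 0.939 to 2.35 and 7.51 to 26.1 CPM, Wt1os from 2.95 to 5.58 and 5.39 to 17.0 CPM, and Emx2os from 0.0797 to 0.729 and 2.85 to 10.0 CPM. Each had a higher mean in ovary, as its partner did, but Wt1os libraries overlapped between the tissues where those of Wt1 did not.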

How the data were processed

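Raw counts per gene were deposited by the authors as 1 table per tissue, and the submitters' processing notes name bcl2fastq 2.20, TopHat2 2.1.1, Bowtie2 2.4.5, SAMtools 1.13, featureCounts 2.0.3, DESeq2 1.32.0 and mm39. Libraries were stranded, per the labels' protocols; the strand setting of counting is not given in the sources used here. From the counts, edgeR 4.0.16 (R 4.3.3) was run with filterByExpr (minimum count 10), TMM scaling and quasi-likelihood tests, adjusted by Benjamini-Hochberg over all genes tested, with a threshold of 0.05. Tissue was fitted on the 12 control libraries and exposure within each tissue and generation. Levels are CPM of library totals. The scripts were tested on simulated data. Libraries of one group differed beyond sampling noise (lowest chi-square per degree of freedom 7.43). Alternatives were DESeq2 1.42.0, other scalings, no filter, more libraries, a replicate block and leaving out each library. Correlations used 100000 permutations within groups. Intervals and floors (3 counts) cover counting error only. The members and lists were chosen with earlier results of these data known. All 10 members were named for tissue, those with the lowest p for exposure, and from each pathway list the 3 largest called changes without overlap in each direction, some of which are not reported here; other genes were named after their values were seen.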

Additional observations from a re-analysis of the deposited data

Results flagged for a closer look

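The testis-ovary difference of Wt1 was 0.57 log2 units less negative in F2 than in F1 controls (edgeR adjusted p = 0.0367). Of all genes, 16.9% passed this test, and the median over all genes was 0.31. Over 19 settings the edgeR or DESeq2 adjusted p of Wt1 ran from 0.00896 to 0.15, so the call depends on the setting. In the F2 maternal dose 2 cross Wt1 lay on opposite sides of its control cross in the tissues: all 3 testis libraries were lower, with a ratio of mean CPM of 0.953, and all 3 ovary libraries higher, with a ratio of 1.14. Of all genes, 21.6% did not overlap in that testis comparison and 12.7% in that ovary comparison. The difference of Wt1 between tissues in that cross was not tested.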

How the results depend on the processing

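The direction of all 10 tissue differences held in every setting tried, with edgeR or DESeq2 adjusted p up to 0.00825 (Emx2, F2), and no result reversed. The count of factors whose tissue difference changed between generations was 1, was 0 with library totals alone, and ran from 0 to 2 over the fits that leave out 1 library. It was 0 without testis F1 control B or C, testis F2 control cross A, B or C, or ovary F2 control cross B or C, and 2 without ovary F1 control B (with Sox8) or C (with Gata6). DESeq2 called 1 factor in testis F2 paternal dose 1 against control cross (Sox8), 1 in ovary F1 dose 2 against control (Tcf21), 2 in ovary F1 dose 2 against dose 1 (Tcf21 and Wt1) and 1 in ovary F2 maternal against paternal dose 2 (Gata6), where edgeR called 0. The test over all F2 ovary crosses called 1 factor (Gata6) without maternal dose 1 A and 0 otherwise. The cause was not tested. Letters A to C were treated as names only, since not every same-letter pair had a correlation over 0.1 (4 of 18 pairs among control libraries, 14 of 45 in F2 testis). As a hint from the data, 12 of 18 F2 testis libraries correlated best with a library of their own letter, against 5 of 18 in F2 ovary, 3 of 9 in each F1 tissue and 4 of 12 controls. With the replicate block Sox8 in F2 testis paternal dose 1 had an edgeR adjusted p = 0.0857, and the count between generations stayed 1 (Wt1, 0.57, edgeR adjusted p = 0.0466), while genes called in that test went from 3408 to 1703; DESeq2 called 5221 and all 54 libraries 6296. Foxl2 in testis is limited by depth, with 0 counts in 8 of 27 libraries.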
